A study of Mus musculus with 120 samples.

Results

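The ETS transcription factor Ets2 was switched on for 24 hours in 3 mouse embryonic stem (mES) cell clones, and the transcriptome of each clone was set against that of the same clone before induction. These 6 arrays, all those labelled as Ets2 clones, were taken by their labels from a series of 120 arrays that covers 20 inducible genes of human chromosome 21 or their mouse orthologs. The induced group holds clones 1 to 3 after 24 hours of growth without tetracycline, and the uninduced group holds the same clones at 0 hours, kept in tetracycline. In both groups the cells derived from EBRTcH3 (EB3), an mES cell line that carries the Tet-off transactivator at the ROSA26 locus. A mouse Ets2 coding sequence with a carboxyl-terminal 3xFLAG tag had been exchanged into that locus, and withdrawal of tetracycline starts its transcription. Each clone was isolated separately from drug-resistant cells and grown with LIF (leukemia inhibitory factor). RNA was hybridized to the Affymetrix Mouse430_2 array, which reads each transcript with 1 or more probesets. Values are log2 signals, so that a difference of 1 is a doubling.

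Ets2 binds DNA through the ETS domain, which recognizes a GGAA core, and it is activated when the Ras/ERK kinase cascade phosphorylates a threonine beside its Pointed domain. In the mouse it is required in the trophoblast, and in fibroblasts and macrophages it is known as an activator of matrix metalloproteinases and of immediate responses to growth factors. Erg, a member of the same family that is known for its role in endothelium, and Gabpa, which works with a Gabpb partner at many housekeeping promoters, were induced for the same 24 hours in other clones of the series.

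Clone 1 stood apart from clones 2 and 3 in both states, so the calls and the gene list counts are given with and without it. Of 45101 probesets, 673 were higher in clone 1 than in either other clone by more than 1 log2 unit in both states (1.49%) and 107 were lower by as much (0.237%). The same count for clone 2 was 0 higher and 2 lower, and that for clone 3 was 2 higher and 0 lower. The correlation between arrays was 0.981 to 0.987 where clone 1 was set against clones 2 and 3, and 0.996 to 0.997 among the arrays of clones 2 and 3.

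The probesets that set clone 1 apart included genes of extraembryonic endoderm, the lineage of the yolk sac. Sox17, a transcription factor of endoderm, read 9.94 in induced and 9.79 in uninduced clone 1. In clones 2 and 3 it read 5.24 and 4.90 when induced and 4.38 and 4.84 when uninduced. Gata6, which specifies primitive endoderm, was at 10.20 and 10.17 in clone 1, against 6.64 and 6.29 (induced) and 6.52 and 6.58 (uninduced) in clones 2 and 3. Cubn, the endocytic receptor cubilin of visceral endoderm, was at 11.10 and 10.57 in clone 1 and between 4.73 and 5.56 in the other 4 arrays. Of 18 measured genes of an extraembryonic endoderm list, 15 exceeded both other clones by more than 1 in both states (83.3%), against 1.88% of all 18194 genes. The yolk sac gene Afp stayed low in clone 1 (4.07 induced, 3.99 uninduced).

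**Figure D1:**
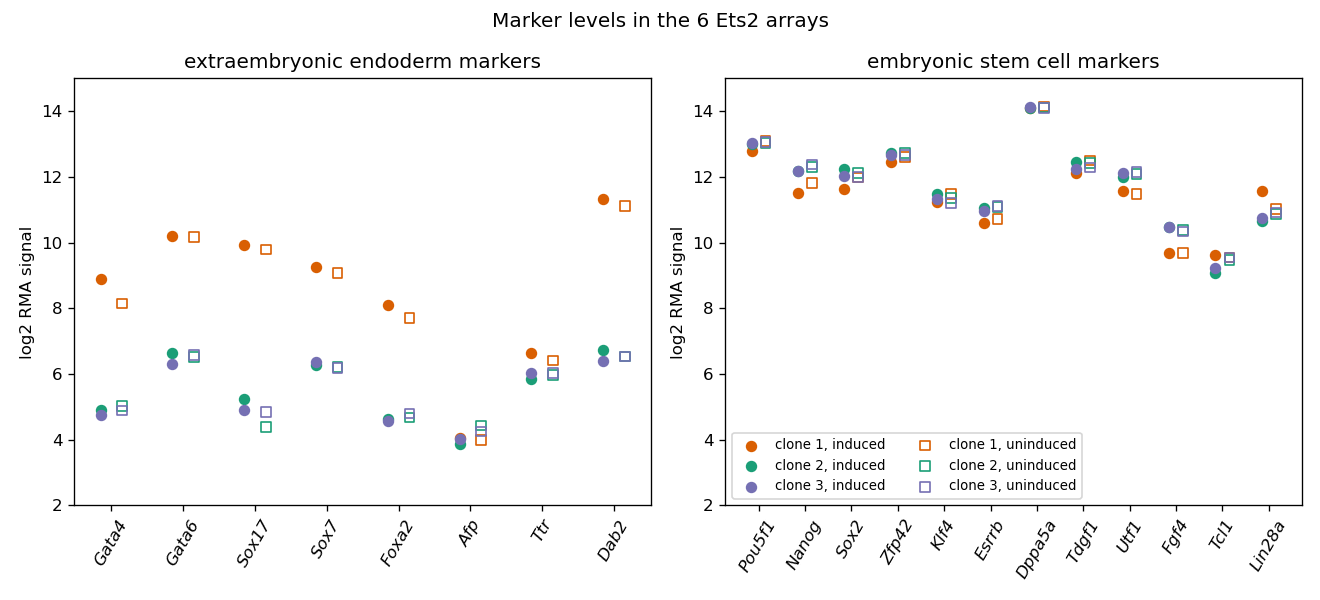
Log2 signal of 8 extraembryonic endoderm markers (left) and 12 embryonic stem cell markers (right) in each Ets2 array, with clones in colour, induced arrays as filled circles and uninduced arrays as open squares. Clone 1 lies above clones 2 and 3 for Gata4, Gata6, Sox17, Sox7, Foxa2 and Dab2 in both states, while the 6 arrays lie closer together for each stem cell marker.

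Embryonic stem cell markers were present in all 6 arrays. Pou5f1 (Oct4) lay between 12.79 and 13.10. Nanog was somewhat lower in clone 1, with 11.52 induced and 11.81 uninduced, than in clones 2 and 3, where it ranged from 12.18 to 12.38. The mean over 12 stem cell markers was 11.57, 11.79 and 11.77 in induced clones 1, 2 and 3, and 11.67, 11.83 and 11.81 in the uninduced clones. The mean over 8 extraembryonic endoderm markers was 8.56, 5.52 and 5.42 in induced clones and 8.30, 5.47 and 5.52 in uninduced clones. Of the further lists, the mean of 8 trophoblast markers ranged from 5.47 to 5.93, that of 5 mesoderm markers from 4.60 to 4.82, that of 5 neural ectoderm markers from 6.05 to 6.20 and that of 7 fibroblast markers from 4.56 to 4.71. In bulk RNA, more cells of a type and more RNA per cell cannot be told apart. Among the clones of the other experiments on this array, clone 1 of Pknox1 and clone 1 of Olig1 also exceeded their companion clones on the endoderm list by more than 2, with 2.43 and 2.18 before induction, against 3.135 in Ets2 clone 1.

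Clone 1 also differed in how it changed. On induction, 144 probesets rose by more than 1 and 133 fell by more than 1 in clone 1, against 15 and 0 in clone 2 and 13 and 2 in clone 3. Across the 45101 probesets the change of clone 1 had a correlation of -0.084 with that of clone 2 and of -0.055 with that of clone 3, and clones 2 and 3 had one of 0.224, where probesets are not independent replicates. Hmox1, the heme oxygenase of the oxidative stress response, was at 5.14 in induced clone 1, against 8.63 in uninduced clone 1. In clones 2 and 3 it was at 9.10 and 9.18 induced and at 9.02 and 8.90 uninduced. The nuclear noncoding RNA Malat1 was at 9.90 in induced clone 1, against 7.48 uninduced, and changed by 0.04 and -0.71 in clones 2 and 3. These genes were picked for their size after the values were seen, and a single clone allows no test.

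Control probesets gave further differences between the states. The 18S ribosomal RNA 5′ control was at 9.63, 7.10 and 7.31 in induced clones 1 to 3 and at 7.74, 6.01 and 6.28 in the uninduced clones, a difference of 1.34 (limma adjusted p = 0.933), with the induced array higher in each clone. The 5′ control of the transferrin receptor changed by -1.25 in clone 1, against 0.35 and 0.72 in clones 2 and 3, while the beta-actin and Gapdh controls changed by 0.22 or less in every clone. The part of ribosomal RNA carry-over in the results below was not tested.

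Ets2 itself did not read higher after induction on any of its 3 probesets. Probeset 1416268_at read 8.38, 8.28 and 8.18 in induced clones 1, 2 and 3, and 8.48, 8.35 and 8.46 in the uninduced clones. The mean difference was -0.15 ± 0.09 (SE, n = 3 clones; limma adjusted p = 0.933), and the groups overlapped. Probeset 1447685_x_at differed by -0.09 ± 0.10 and the dim probeset 1437809_x_at by -0.01 ± 0.09. The transgene holds the coding sequence alone, and whether these probesets match it was not tested, so they check neither the labels nor the induction. In the Erg clones the first of these probesets changed by -0.80, a difference from the Ets2 clones of 0.65 (limma adjusted p = 0.0182), and in the Gabpa clones by -0.45. The change in the Ets2 clones ranked 12 of the 14 experiments sampled at 24 hours.

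The first question was which transcripts responded to Ets2. With the 6 arrays alone, limma on the paired clones called 0 of 45101 probesets at an adjusted p under 0.05 (0%), with a smallest adjusted p of 0.933, while 2368 had an unadjusted p under 0.05. In simulated data this fit found 0% of 100 planted changes of 1 log2 unit, so its count does not show that such changes were absent. A Cyber-t kind of test, which borrows the spread from probesets of similar signal, found 99% of them with 117 false calls. On the real 6 arrays it also called 0, with a smallest adjusted p of 0.0658. A second limma fit took its estimate of the spread from all 114 arrays of this type. This shared-spread fit called 10 probesets for Ets2, of which 9 were higher (0.02% of all probesets) and 1 was lower (0.00222%). Restricted to Ets2 clones 2 and 3, it called 38, with 36 higher (0.0798%) and 2 lower (0.00443%). The second list holds all 10 probesets of the first, and 26 of its 38 moved in the same direction in clone 1. Only clones 2 and 3 entered the longer list, and it was drawn up after clone 1 had been seen to stand apart.

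Pfkm, the muscle form of phosphofructokinase that commits glucose to glycolysis, had the clearest increase. It read 9.62, 10.14 and 9.99 in induced clones 1, 2 and 3, and 8.93, 8.72 and 8.64 in uninduced clones. Every induced array lay above every uninduced one, and the mean change was 1.15 ± 0.11 (SE of the shared-spread fit; adjusted p = 1.39e-09), a 2.22-fold increase. Without clone 1 the change was 1.39 (adjusted p = 7.61e-11), without clone 2 it was 1.02 (adjusted p = 1.33e-05) and without clone 3 it was 1.05 (adjusted p = 8.74e-06). Pfkm was the one probeset called with any clone left out.

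Cebpd, the basic leucine zipper factor C/EBP delta, read 6.68, 7.79 and 7.68 in induced clones and 6.32, 6.37 and 6.41 in uninduced clones. The groups did not overlap, clone 1 moved least, and the mean change was 1.01 ± 0.19 (adjusted p = 0.0123, shared-spread limma fit). Cpe, the carboxypeptidase E that trims prohormones, read 7.82, 7.84 and 7.49 in induced clones and 7.79, 6.30 and 6.19 in uninduced clones. Its level in clone 1 was high in both states, so that the groups overlapped. The change was 0.96 ± 0.19 over 3 clones (adjusted p = 0.0441) and 1.42 ± 0.20 in clones 2 and 3 (adjusted p = 0.000127).

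**Figure D2:**
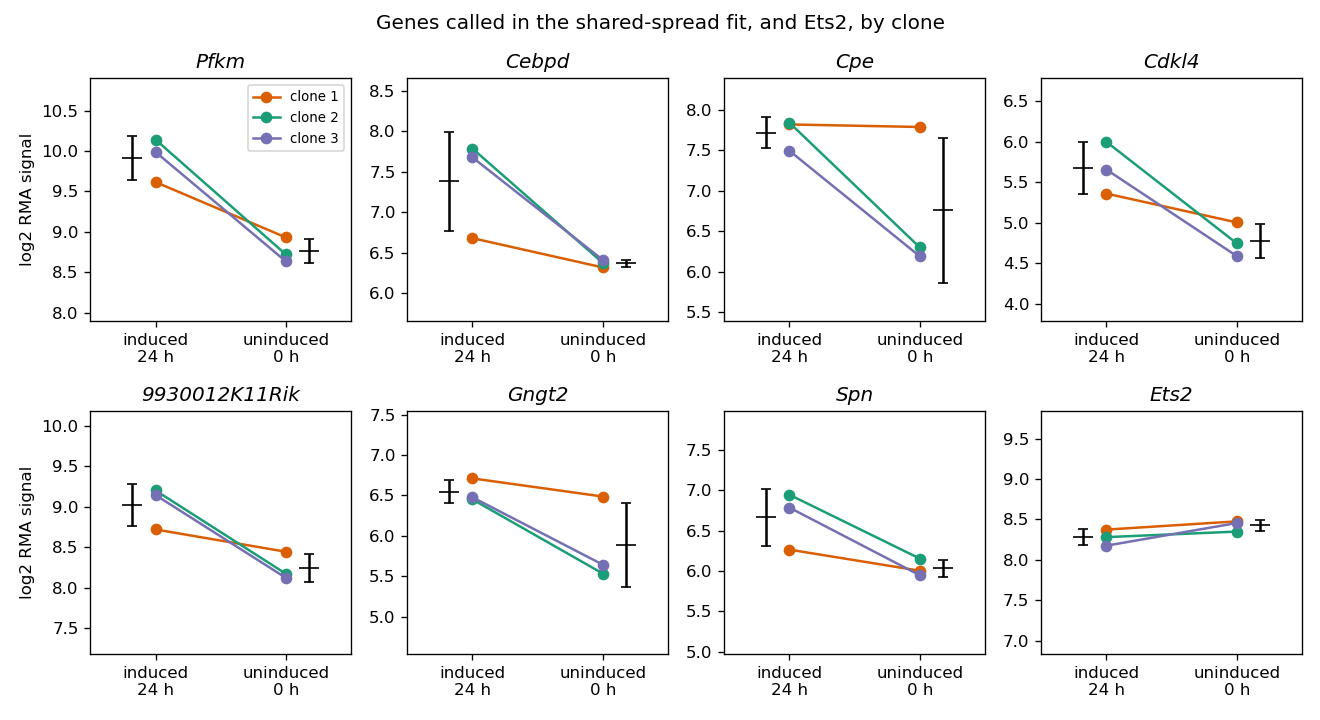
Log2 signal in induced (left) and uninduced (right) arrays for 7 genes that rose in the shared-spread fit and for Ets2 (probeset 1416268_at), with a line per clone and the group mean ± SD in black. Pfkm is higher in all 3 induced arrays, clone 1 changes least for each of the 7 genes, and Ets2 does not rise.

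Cdkl4, a kinase related to the cyclin-dependent kinases, read 5.36, 6.0 and 5.66 in induced clones and 5.00, 4.75 and 4.59 in uninduced clones, which did not overlap (0.89 ± 0.13, adjusted p = 0.000439). 9930012K11Rik rose by 0.78 ± 0.12 (adjusted p = 0.000941), with 8.72, 9.20 and 9.15 in induced clones and 8.44, 8.17 and 8.12 in uninduced clones. Both genes were higher in every induced array than in any uninduced one. Spn, which encodes the leukocyte sialoglycoprotein CD43, read 6.26, 6.94 and 6.78 in induced clones and 6.003, 6.15 and 5.95 in uninduced clones (0.63 ± 0.11, adjusted p = 0.0123). Gngt2, a gamma subunit of heterotrimeric G proteins, read 6.71, 6.45 and 6.48 against 6.49, 5.53 and 5.64 in uninduced clones, which overlapped through clone 1 (0.66 ± 0.12, adjusted p = 0.0123). The remaining 3 calls were Iftap (0.44 ± 0.09, adjusted p = 0.0295), a probeset that matches more than 1 gene (1.08 ± 0.14, adjusted p = 5.07e-05) and, as the only decrease, Otulinl (-0.43 ± 0.09, adjusted p = 0.0431). Otulinl, with a signal of 2.61 to 3.36, was among the dimmest. Iftap was dim as well, at 3.80, 4.16 and 4.27 in induced clones and 3.51, 3.67 and 3.73 in uninduced clones. The changes of all but Pfkm lost their call when clone 2 or clone 3 was left out.

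The calls made in clones 2 and 3 alone included several genes read by more than 1 probeset. They are named here after their values were seen. Coro1a, the coronin that organizes actin in leukocytes, rose on 2 probesets. On probeset 1455269_a_at it read 6.60 and 6.26 in induced clones 2 and 3 against 5.68 and 5.22 in uninduced clones (0.98 ± 0.16, adjusted p = 0.00171), while clone 1 changed by -0.10. Mindy1, a deubiquitinase specific for K48 chains, rose on 4 probesets by 0.50 to 0.66, and Ptpn12, a phosphotyrosine phosphatase of focal adhesions, on 3 probesets by 0.40 to 0.55. Single probesets placed Msn (moesin, 0.53), S1pr2 (a sphingosine-1-phosphate receptor, 0.68), Rapgef3 (the cAMP sensor EPAC1, 0.78), Rasgrp2 (an exchange factor for Rap1, 0.58), Serpinb9b (a serine protease inhibitor, 0.77), Igf1 (insulin-like growth factor 1, 0.67), Mex3b (an RNA-binding protein, 1.02) and Ankrd33b (1.03) among the increases. Mex3b moved the other way in clone 1, at -0.42.

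Promoter windows of the called genes are shown because the ETS core is the sequence that Ets2 is known to bind. RefSeq windows (GRCm38.p6, each of 300 bases around a transcription start, most of them upstream) were found for 17 of the 27 genes that rose in clones 2 and 3, 24 windows in all. Each was searched on both strands for AGGAAG and for CCGGAA, which both contain the ETS core. The motif AGGAAG was in 14 of the 24 windows (58.3%), against 35.4% of 32851 windows of all genes, and CCGGAA was in 3 (12.5%), against 14.9%. The windows are not all separate, since 3 of the 14 belong to Pfkm and 2 of those overlap and hold the same copy. Counted by gene, 12 of the 17 held AGGAAG in at least 1 window. The share by gene was not computed for all genes, and some genes have several windows, so 35.4% is not its background. The capitals mark these matches in 5 windows, at chr15:98108221-98108520 (plus strand) for Pfkm, chr7:127137774-127138073 (minus strand) for Spn, chr10:99262981-99263280 (plus strand) for Dusp6, chr13:33027164-33027463 (plus strand) for Serpinb9b and chr7:126704171-126704470 (minus strand) for Coro1a.
Pfkm: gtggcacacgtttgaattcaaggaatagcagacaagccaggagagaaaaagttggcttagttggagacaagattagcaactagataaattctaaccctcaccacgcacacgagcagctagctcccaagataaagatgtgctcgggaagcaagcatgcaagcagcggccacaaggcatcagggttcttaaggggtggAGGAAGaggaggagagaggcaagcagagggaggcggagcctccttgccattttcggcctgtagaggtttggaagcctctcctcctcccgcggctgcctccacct
Spn: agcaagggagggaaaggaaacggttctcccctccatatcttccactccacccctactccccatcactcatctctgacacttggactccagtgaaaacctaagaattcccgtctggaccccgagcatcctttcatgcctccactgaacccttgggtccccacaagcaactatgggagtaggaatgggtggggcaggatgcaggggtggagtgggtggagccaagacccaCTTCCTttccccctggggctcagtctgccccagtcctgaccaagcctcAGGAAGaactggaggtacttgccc
Dusp6: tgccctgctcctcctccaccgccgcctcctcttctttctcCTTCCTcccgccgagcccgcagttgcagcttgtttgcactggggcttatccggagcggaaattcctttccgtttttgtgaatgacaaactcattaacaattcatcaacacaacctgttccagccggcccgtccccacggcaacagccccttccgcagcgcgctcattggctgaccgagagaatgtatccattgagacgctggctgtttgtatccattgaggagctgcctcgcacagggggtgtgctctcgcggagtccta
Serpinb9b: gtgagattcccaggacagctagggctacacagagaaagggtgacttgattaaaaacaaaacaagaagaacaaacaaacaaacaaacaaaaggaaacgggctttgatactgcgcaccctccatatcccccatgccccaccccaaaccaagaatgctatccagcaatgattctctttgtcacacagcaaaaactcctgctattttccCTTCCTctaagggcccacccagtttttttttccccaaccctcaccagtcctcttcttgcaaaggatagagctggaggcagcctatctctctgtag
Coro1a: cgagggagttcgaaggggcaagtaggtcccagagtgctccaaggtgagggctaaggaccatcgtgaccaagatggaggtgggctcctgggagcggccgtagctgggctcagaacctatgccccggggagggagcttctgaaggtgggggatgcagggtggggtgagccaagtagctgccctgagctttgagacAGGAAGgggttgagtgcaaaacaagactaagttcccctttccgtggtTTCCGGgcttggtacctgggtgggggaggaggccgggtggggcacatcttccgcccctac
Spn holds AGGAAG 2 times, once on each strand, and Coro1a holds 1 copy of each motif. Both Cdkl4 windows and the Mex3b and Ankrd33b windows hold neither. A match is a description of the sequence only, and binding was not measured in these cells.

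Genes of the ERK pathway were examined because ERK signalling activates Ets2 and because several ETS targets feed back on it. Of 20 measured genes of this list, 5 were higher at an unadjusted limma p under 0.05 (25%) and 1 was lower (5%), against 2.03% and 3.14% of all 18194 genes. With clones 2 and 3 alone the counts were again 5 and 1, against 3.14% higher and 2.34% lower among all genes. In this list and those below, counts over 3 clones came from the fit to the Ets2 arrays alone. Those in clones 2 and 3 came from the shared-spread fit. Both the clones and the estimate of the spread differ, so a shift in a count cannot be put down to clone 1 alone. The median change of the ERK list was 0.03 over 3 clones and 0.09 in clones 2 and 3, against -0.01 and 0 over all genes.

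Among the genes that read higher were 2 phosphatases that switch MAP kinases off, Dusp1 and Dusp4. Dusp6, the phosphatase specific for ERK, read 10.10, 10.47 and 10.27 in induced clones and 10.19, 9.89 and 9.75 in uninduced clones. It rose in clones 2 and 3 (0.55 ± 0.11, adjusted p = 0.0222 in the shared-spread limma fit) and changed by -0.09 in clone 1. Dusp1 read 9.42, 9.35 and 8.85 against 9.32, 8.67 and 8.40 in uninduced clones, higher in every clone within its pair (0.41, unadjusted p = 0.012 by limma). Its adjusted p was 0.933. Dusp4 differed by 0.35, the Ras inhibitor Spred1 by 0.24, the immediate early gene Ier3 by 0.23 and the kinase Braf by 0.22, each with an unadjusted p under 0.05 and an adjusted p of 0.933. Egr1, an immediate early target of ERK signalling, went the other way, with 8.08, 8.03 and 7.60 in induced clones and 8.51, 8.63 and 8.29 in uninduced clones. Its groups did not overlap and its difference was -0.57 ± 0.09 (SE), yet its adjusted p was also 0.933.

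**Figure D3:**
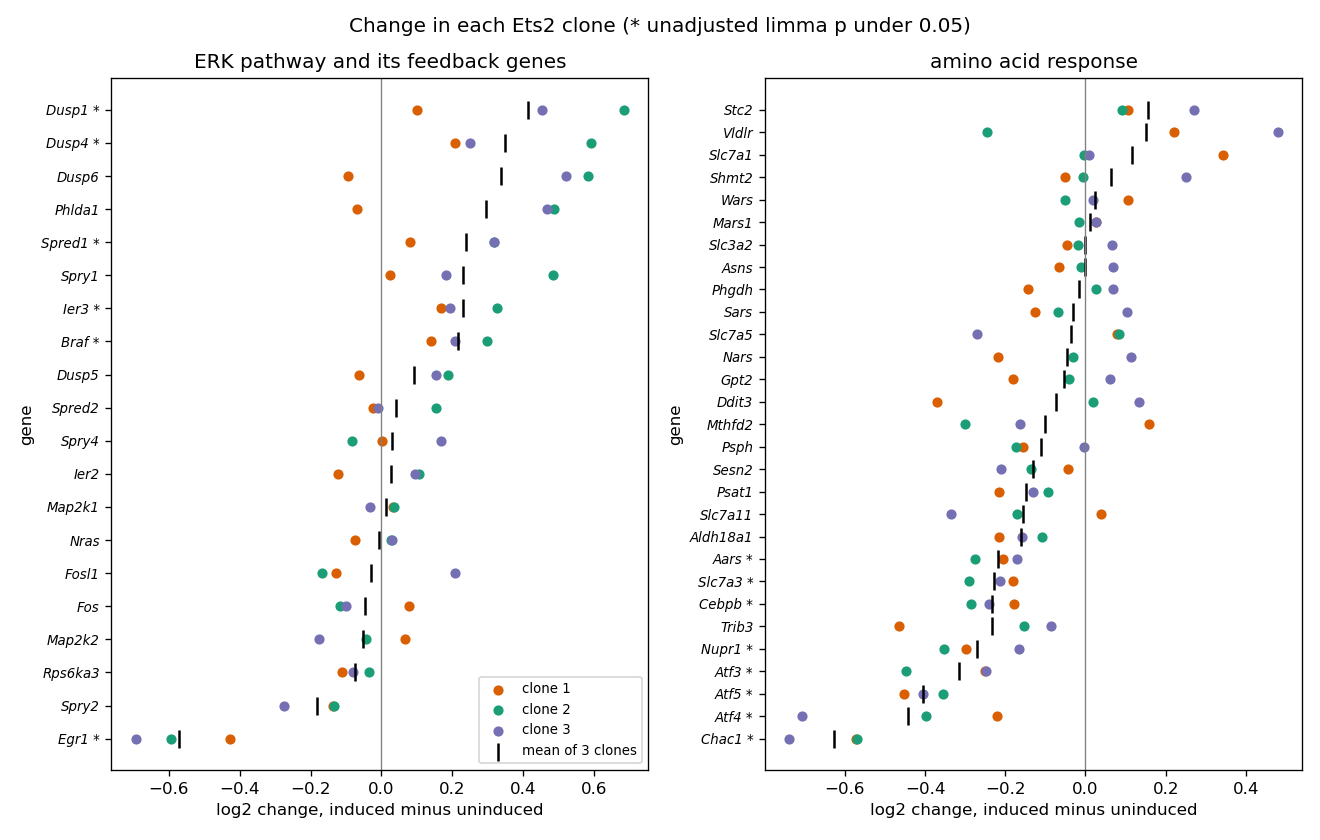
Log2 change (induced minus uninduced) of each gene of the ERK list (left) and of the amino acid response list (right) in clones 1, 2 and 3, with a bar for the mean and an asterisk for an unadjusted limma p under 0.05. Dusp1, Dusp4 and Spred1 lie to the right in all 3 clones, whereas Egr1, Atf4, Atf5 and Chac1 lie to the left in all 3.

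The amino acid response, which the factor Atf4 drives when amino acids or protein folding fail, held the largest share of lower genes among the 17 lists. Of its 29 measured genes, 8 were lower at an unadjusted limma p under 0.05 (27.6%, against 3.14% of all genes) and 0 were higher, and the median change was -0.10. In clones 2 and 3 the shared-spread counts were 4 lower (13.8%, against 2.34% of all genes) and 0 higher, with a median of -0.09. The list was not lower in Ets2 clones alone. Its median change was -0.31 in Erg and -0.11 in Gabpa clones, against -0.02 and -0.03 over all genes. Chac1, which degrades glutathione, read 7.76, 6.83 and 6.32 in induced clones and 8.34, 7.40 and 7.06 in uninduced clones. The groups overlapped because clone 1 was high in both states, but each induced clone lay below its own uninduced level, with differences of -0.74 to -0.57. Atf4 itself read 11.69, 11.14 and 10.79 in induced clones and 11.91, 11.54 and 11.50 in uninduced clones, a difference of -0.44. Atf5 differed by -0.40, Atf3 by -0.32, the stress factor Nupr1 by -0.27, Cebpb by -0.23, the arginine transporter Slc7a3 by -0.23 and the alanyl-tRNA synthetase Aars by -0.22. None of the 8 had an adjusted p below 0.933. Trib3, Ddit3 and Asns, textbook Atf4 targets, did not pass even the unadjusted test. In Gabpa clones Chac1, Atf4 and Atf5 went the other way (1.22, 0.18 and 0.18), as did Trib3 (0.53) and Ddit3 (0.47). Nupr1, Cebpb, Aars, Atf3 and Slc7a3 changed there by -0.38, -0.18, -0.10, -0.04 and -0.04. For Chac1 the Ets2 minus Gabpa difference was -1.85 (limma adjusted p = 0.274, 12 arrays). Without clone 1 it was -1.88 (adjusted p = 0.001, shared-spread limma fit).

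Known ETS2 targets showed few differences. Of 25 measured, 2 were higher at an unadjusted p under 0.05 (8%, against 2.03% of all genes) and 0 lower. In clones 2 and 3, 1 was higher (4%, against 3.14%) and 0 lower. The proto-oncogene Myc read 9.16, 9.93 and 9.98 in induced clones against 9.12, 9.54 and 9.57 in uninduced clones (0.28). The gelatinase Mmp9 read 5.55, 6.06 and 5.72 against 5.50, 5.56 and 5.47 in uninduced clones on its brighter probeset (0.27). Its other probeset, 1448291_at, rose in clones 2 and 3 (0.60 ± 0.12, adjusted p = 0.0175) and changed by -0.02 in clone 1. The metalloproteinases Mmp3 and Mmp13, known Ets2 targets in fibroblasts, differed by -0.12 each at dim levels, and Junb by 0.15. Of 26 measured matrix proteases and inhibitors, 3 were higher (Mmp9, Timp2 and Adam19, 11.5%, against 2.03% of all genes) and 0 lower. In clones 2 and 3 the counts were 3 and 1 (11.5% and 3.85%, against 3.14% and 2.34% of all genes).

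Members of the ETS family did not pass the unadjusted test in either direction, with 0 of 26 higher and 0 lower, also in clones 2 and 3, and a median change of -0.001. Their differences ran from -0.31 for Elf1 to 0.20 for Ehf. Ets1, the closest relative of Ets2, read 5.56, 5.46 and 5.52 in induced clones and 6.03, 5.28 and 5.62 in uninduced clones, which overlapped, and differed by -0.13. Trophoblast genes gave 2 higher (8.33%, against 2.03% of all genes) and 3 lower (12.5%, against 3.14%) of 24, and 0 higher and 1 lower in clones 2 and 3 (4.17%, against 2.34%). Cdx2 differed by 0.06 and Hand1 by 0.09, both low in all arrays, and Eomes, at 7.05, 5.91 and 5.87 induced against 7.28, 6.05 and 6.19 uninduced, differed by -0.23 (unadjusted p = 0.0299 by limma).

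Pluripotency genes gave 0 higher and 3 lower of 26 (11.5%, against 3.14% of all genes), with a median of -0.04. In clones 2 and 3 they gave 1 higher and 1 lower (3.85% each, against 3.14% and 2.34% of all genes). Prdm14, a repressor that guards naive pluripotency, read 7.39, 7.60 and 7.61 in induced clones against 7.84, 7.98 and 7.81 in uninduced clones, without overlap (-0.35). Dppa3 (Stella) differed by -0.30, and on its brighter probeset Tbx3 by -0.20. The core factors Pou5f1, Sox2 and Nanog differed by -0.12, -0.07 and -0.20 and did not pass. Of 17 formative and primed epiblast genes, 3 were higher (Dnmt3b, Pou3f1 and Fgf5, by 0.23 to 0.30) and 1 was lower (Otx2, -0.28). These are 17.6% and 5.88%, against 2.03% and 3.14% of all genes. In clones 2 and 3 the counts were 2 and 1 (11.8% and 5.88%, against 3.14% and 2.34%).

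Glycolysis and hypoxia genes gave 6 higher and 0 lower of 28 (21.4%, against 2.03% of all genes) over the 3 clones. In the shared-spread fit of clones 2 and 3 they gave 2 higher and 0 lower (7.14%, against 3.14%). Ndrg1, a stress-induced gene, read 8.51, 8.39 and 8.45 in induced clones against 8.01, 7.88 and 7.91 in uninduced clones, a gap in every pair (0.51). Pdk1, which restrains entry of pyruvate into mitochondria, read 10.23, 10.16 and 9.86 against 10.21, 9.35 and 9.19 in uninduced clones (0.50). Endothelium genes gave 3 higher and 1 lower of 30 (10% and 3.33%, against 2.03% and 3.14% of all genes). In clones 2 and 3 they gave 3 and 0 (10% and 0%, against 3.14% and 2.34%). Nos3, the endothelial nitric oxide synthase, led the list, at 7.62, 7.78 and 7.73 induced and 7.33, 7.22 and 7.10 uninduced (0.49).

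In each of the remaining lists 3 genes or fewer passed in either direction, against 2.03% higher and 3.14% lower among all genes over 3 clones and 3.14% and 2.34% in clones 2 and 3. Extraembryonic endoderm gave 2 higher and 0 lower of 18, and 1 and 1 in clones 2 and 3, with a median change of 0.22 in clone 1, 0 in clone 2 and -0.02 in clone 3. Gata4 was at 8.90 in induced and 8.15 in uninduced clone 1 and changed by -0.13 in each of clones 2 and 3. Mesoderm gave 0 higher and 2 lower of 17 (0 and 1 in clones 2 and 3), neural ectoderm 1 and 0 of 18 (again 1 and 0), and cartilage and bone 0 and 3 of 18 (1 and 1). The p53 response and apoptosis gave 1 higher and 2 lower of 22, and 3 and 0 in the shared-spread fit of clones 2 and 3. Cell cycle regulators gave 3 and 1 of 23 and fibroblast genes 1 and 0 of 17, and both gave 0 and 0 in clones 2 and 3. The 1 p53 list member that was higher over 3 clones, the BH3-only gene Bcl2l11 (Bim), read 9.18, 9.08 and 8.95 induced and 8.97, 8.44 and 8.41 uninduced (0.46).

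Across all genes, the 12 largest differences in each direction were taken among those with an unadjusted limma p under 0.01, the same direction in all 3 clones and a signal above the median of all probesets. The 12 increases include Pfkm, Cebpd, Cpe, Cdkl4, 9930012K11Rik, Ankrd33b, Gngt2 and Spn, which are described above. Of the other 4, Igfbp4, a carrier of insulin-like growth factors, read 6.78, 6.30 and 6.03 in induced clones and 6.37, 4.76 and 4.96 in uninduced clones, overlapping through clone 1 (1.01 ± 0.20). The corepressor Skor1 read 5.61, 6.65 and 6.81 against 5.16, 5.56 and 5.44 in uninduced clones without overlap (0.97 ± 0.17). Exoc3l, related to an exocyst subunit, read 8.64, 8.54 and 8.60 against 8.17, 7.46 and 7.25 (0.96 ± 0.16), and the calcium channel subunit Cacna2d2 read 6.32, 6.51 and 6.32 against 5.88, 5.63 and 5.71 in uninduced clones (0.64 ± 0.10). The same direction in every clone was a condition of the choice. Of the 3 clones, clone 1 changed least for each of these 4 genes. Among decreases, Chac1 and Egr1 were joined by Atp1b2, a subunit of the sodium pump, with 5.93, 5.58 and 5.61 in induced clones and 6.60, 6.25 and 6.11 in uninduced clones (-0.62 ± 0.08). Msi1, an RNA-binding protein of neural progenitors, differed by -0.50 ± 0.08, the receptor Notch2 by -0.50 ± 0.12 and the glycogen synthase Gys1 by -0.50 ± 0.11. The other decreases among the 12 were Tbx3 on its dimmer probeset (-0.61, and -0.33 without clone 1), Car13 (-0.50), Atn1 (-0.48), Tacc1 (-0.48), a probeset of H2-Bl (-0.46, and -0.28 without clone 1) and Hoxc13 (-0.45). All of these had an adjusted p of 0.933 in the 6 arrays, and 73 higher and 105 lower genes met the same 3 conditions. The SE in this paragraph is that of the fit to the 6 arrays, in which the leads were chosen by a small p. On the shared spread it was 0.33 for Igfbp4, 0.28 for Skor1, 0.21 for Exoc3l and 0.14 for Cacna2d2. It was 0.28 for Atp1b2, 0.26 for Msi1, 0.15 for Notch2 and 0.27 for Gys1.

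The second question was whether the response to Ets2 differed from that to the related factors. Ets2 and Erg clones share no arrays. The difference between the Ets2 and Erg changes was called for 2275 of 45101 probesets (5.04%), and that between the Ets2 and Gabpa changes for 0 (0%) in the 12 arrays of each pair. On the shared spread the Gabpa contrast called 742. In simulated data of 12 arrays the Gabpa contrast found 18% of 100 planted changes of 1 log2 unit, and the Erg contrast found 54%. Igfbp4 changed by 1.01 in Ets2 and by 5.20 in Erg clones, a difference of -4.19 (limma adjusted p = 0.000654). Cdkl4 differed by -1.51 (0.89 in Ets2, 2.40 in Erg, adjusted p = 0.0043) and Exoc3l by -0.98 (0.96 and 1.95, adjusted p = 0.0293). Egr1 changed by -0.57 in Ets2 and by -2.09 in Erg clones, a difference of 1.52 (adjusted p = 0.00109). Atp1b2 changed by -0.62 in Ets2 and by 0.53 in Erg clones (difference -1.15, adjusted p = 0.000891).

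Most probesets that rose in Ets2 clones 2 and 3 also rose after Erg. In the shared-spread fit, 23 of the 36 (63.9%) were called higher in the Erg clones, where 2628 of all probesets were (5.83%), and these 23 are 0.875% of the Erg list. A single one was called lower in Erg (2.78%, against 7.52% of all probesets). For Gabpa, 2 of the 36 (5.56%) were called higher, against 4.81% of all probesets, and 4 (11.1%) lower, against 4.02%. For Nrip1, a nuclear receptor corepressor, 10 were called higher (27.8%), against 2.82%, and 3 lower (8.33%), against 1.94%. Olig2, a neural transcription factor also sampled at 24 hours, gave 5 higher (13.9%), against 0.863%, and 2 lower (5.56%). Among experiments sampled at 39 or 48 hours, Ripk4 gave 2 higher (5.56%, against 0.353%), Sim2 4 (11.1%, against 6.51%), Pdxk 3 (8.33%, against 4.16%) and Aire 1 (2.78%, against 1.88%). Sim2 called more of the 36 lower than higher, with 6 lower (16.7%), and so did Aire, with 4 (11.1%). Pdxk called 3 lower (8.33%) and Ripk4 0. The median change of the 36 was -0.069 in Sim2 and -0.106 in Aire clones, and 0.036 in Pdxk and 0.061 in Ripk4 clones. The other 10 experiments called 0 of the 36 higher. Among these, Pfkl called 256 of all probesets higher (0.568%) and Hunk 15 (0.0333%). Each of the rest called 6 or fewer, so they could show hardly any overlap. Whether these shares differ between experiments was not tested. All these fits share 1 estimate of the spread. Side by side, Pfkm changed by 1.39 in Ets2 clones 2 and 3, by 1.04 in Erg and by -0.60 in Gabpa clones. Coro1a changed by 0.98, 1.67 and 0.13, Serpinb9b by 0.77, 1.64 and -0.37, and Dusp6 by 0.55, 0.87 and -0.26, each in the order Ets2, Erg and Gabpa.

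**Figure D4:**
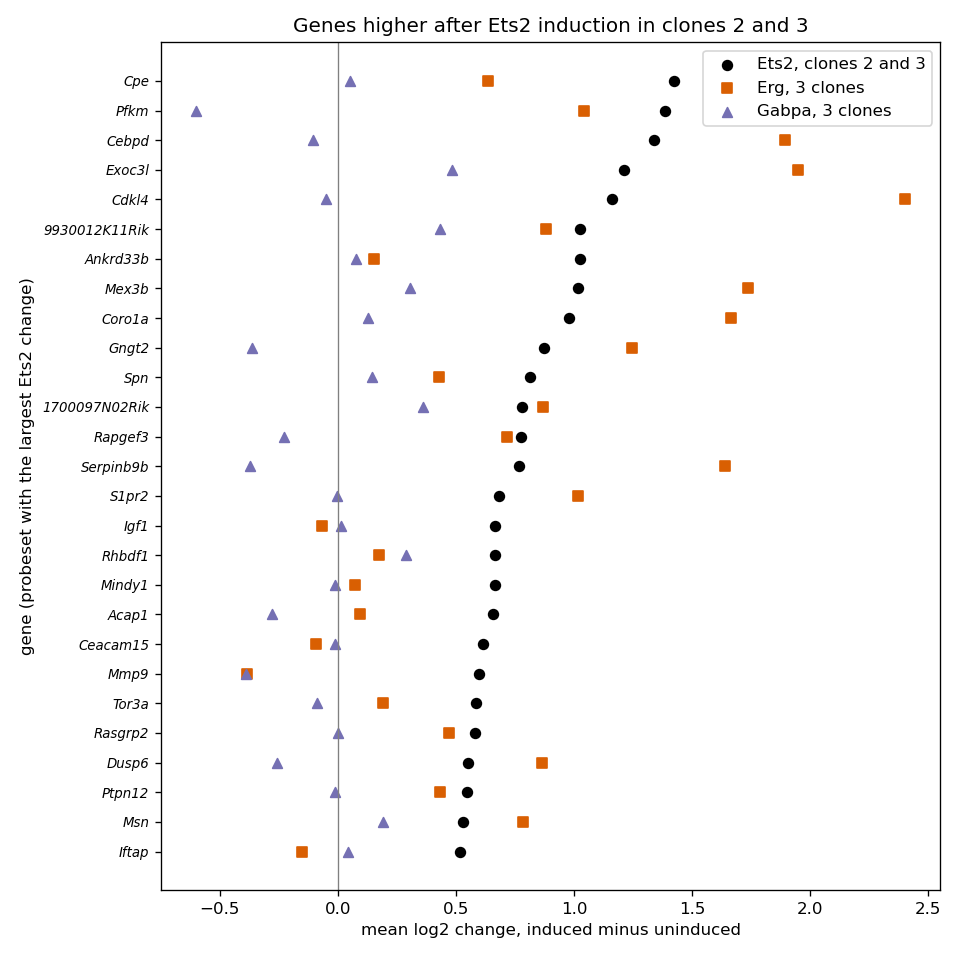
Mean log2 change (horizontal axis) of the 27 genes that rose in Ets2 clones 2 and 3, in those clones (circles), in the 3 Erg clones (squares) and in the 3 Gabpa clones (triangles), with 1 probeset per gene. Cdkl4, Exoc3l and Cebpd lie further right in Erg, Mindy1, Igf1, Ceacam15 and Mmp9 lie near 0 or left of it in Erg, and most genes lie near 0 in Gabpa.

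Other genes of the list differed from Erg. Mindy1 changed by 0.66 in Ets2 clones 2 and 3 and by 0.07 in Erg clones on probeset 1426655_a_at (difference 0.59, adjusted p = 0.00213 on the shared spread). Mmp9 changed by 0.60 and -0.38 on probeset 1448291_at (difference 0.98, adjusted p = 1.49e-05), and Igf1 by 0.67 and -0.07 (difference 0.73, adjusted p = 0.00628). With all 3 Ets2 clones and the 12 arrays alone, the difference for Mmp9 was 0.78 (adjusted p = 0.0418) and those for Mindy1 and Igf1 had adjusted p-values of 0.401 and 0.275. Spred1 was not on that list, since its change in Ets2 clones 2 and 3 was not called (0.41, adjusted p = 0.261 in the shared-spread limma fit). On probeset 1423161_s_at it was at 0.30 in the 3 Ets2 clones and -0.67 in Erg clones (difference 0.98, adjusted p = 0.00402).

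The third comparison set Ets2 against the mean change of the other 13 experiments sampled at 24 hours, which share the withdrawal of tetracycline and the day of growth. It called 2 probesets (0.00443%), both higher, of which 1 was Pfkm and the other matches more than 1 gene. Pfkm changed by 1.15 in Ets2 clones and by 0.08 on average elsewhere, a difference of 1.07 (limma adjusted p = 5.06e-08), although its change in Erg clones, 1.04, did not differ from that in Ets2 clones in the direct test (difference 0.11, adjusted p = 0.843). Without clone 1 the comparison called 17 (0.0377%), all higher, among them Cpe (difference 1.40, adjusted p = 0.00364), Ankrd33b (1.06, adjusted p = 0.00098), Cdkl4 (1.01, adjusted p = 0.00364), Spn, Gngt2, Rapgef3, Mmp9, Spred1 and 3 probesets of Mindy1. Cebpd, at 1.07 with an adjusted p of 0.0603, was not among them. Its change over all 3 clones, 1.01, ranked the third of 14, after Erg (1.89) and Olig2 (1.51).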

How the data were processed

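RNA of 6 arrays, 3 Ets2 clones induced for 24 hours and the same clones uninduced, was hybridized to Affymetrix Mouse430_2 arrays. The deposited values are log2 signals that the authors made with robust multi-array averaging (RMA, affy), and the number of arrays limits their precision. The array medians lay between 5.10 and 5.14. Of 45101 probesets, 34958 matched 1 gene in the platform annotation, 932 several and 9211 none. Replicate numbers name clones and pair the arrays. After removal of the state means, arrays of the same number correlated at 0.770, 0.572 and 0.654. Changes within clones were tested with limma 3.58.1 in R 4.3.3, with Benjamini-Hochberg adjustment over all probesets, either on the arrays compared or on all 114 arrays of this type (the shared-spread fit). The 6 arrays of the Runx1 experiment, on another array type, were not used. Lists took the probeset with the highest mean signal per gene. List counts over 3 clones used the fit to the 6 arrays, and those with clone 1 left out used the shared-spread fit. Genes named were the Ets2 probesets, calls, the 12 largest leads per direction (unadjusted p under 0.01, same direction in 3 clones, signal above the median) and list members. Members and lists were chosen with earlier results of these data known. Each fit was tested on simulated data with 100 planted changes of 1 log2 unit and 100 of 0.5. All simulated clones shared 1 spread per probeset. In the real data the SD of the changes was 0.25 in clone 1, 0.18 in clone 2 and 0.19 in clone 3. The simulated recovery and false calls may therefore not hold for the real clones. Of those of 1, limma on the 6 arrays found 0%, the Gabpa contrast 18%, the Erg contrast 54% and the shared-spread fit 98%. Of those of 0.5, the shared-spread fit found 70% and these other fits 0%. The shared-spread fit also made 12 false calls. On the 6 arrays the Cyber-t kind of test found 99% of those of 1 and 60% of those of 0.5, with 117 false calls. Alternatives were no clone block, a Cyber-t kind of test (prior weight 10), the methods' t-test between arrays, a filter on dim probesets, a second quantile normalization, trended robust variances, a 10% FDR, other reference experiments and each clone left out.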

Additional observations from a re-analysis of the deposited data

Results flagged for a closer look

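Several genes named above changed differently after Ets2 than after Erg or than in the other experiments sampled at 24 hours, by a limma test of the difference itself. The Ets2 change minus the Erg change was 0.65 for Ets2 probeset 1416268_at (adjusted p = 0.0182), 1.52 for Egr1 (adjusted p = 0.00109) and 0.59 for the dim Iftap (adjusted p = 0.0222). It was -4.19 for Igfbp4 (adjusted p = 0.000654), -1.51 for Cdkl4 (adjusted p = 0.0043), -0.98 for Exoc3l (adjusted p = 0.0293), -1.15 for Atp1b2 (adjusted p = 0.000891) and -1.15 for Atn1 (adjusted p = 0.0285). Atn1 changed by -0.48 in Ets2 and by 0.66 in Erg clones. Against the mean of the other 24 hour experiments the difference was 1.07 for Pfkm (adjusted p = 5.06e-08). With clone 1 left out and the spread shared over all arrays, the differences from Erg stayed below an adjusted p of 0.05 for Ets2, Egr1, Iftap, Igfbp4 and Cdkl4, while those of Exoc3l (-0.74, adjusted p = 0.261), Atp1b2 (-1.12, adjusted p = 0.188) and Atn1 (-1.32, adjusted p = 0.204) did not. Both the clones and the estimate of the spread differ in that fit. Groups of 3 arrays are too small for a check on single outlying arrays.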

How the results depend on the processing

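For induced against uninduced Ets2 clones, the count of 0 calls held without the clone block (588 probesets at an unadjusted p under 0.05), with the Cyber-t kind of test (2314, smallest adjusted p = 0.0658), with the methods' t-test (1084), without dim probesets (1336), after a second quantile normalization (2434), with trended robust variances (2314), at an FDR of 10% and with any clone left out (0 to 0). It became 10 in 1 fit over all 114 arrays, and, in alternatives chosen after the data were seen, 38, 1 and 2 in that fit without Ets2 clone 1, 2 or 3. The Ets2 minus Erg count of 2275 became 432 without the replicate block and ranged from 1155 to 2033 with a clone left out. It was 1155 without Ets2 clone 2 and 1161 without clone 3. The Ets2 minus Gabpa count of 0, with 3939 probesets at an unadjusted p under 0.05, became 742 in the fit over all arrays and 614 there without clone 1. It stayed at 0 to 0 with a clone left out. The count of 2 against the other 24 hour experiments became 0 without the replicate block, 5 against all other experiments, 5 after the second quantile normalization and 1 to 17 with a clone left out (17 without clone 1). Among 30 named probesets, the sign held under each alternative except for 2 Ets2 probesets, 1437809_x_at (-0.065 to 0.083 with a clone left out, above 0 without clone 2) and 1447685_x_at (-0.145 to 0.02, above 0 without clone 1). The cause of these shifts was not tested. Signals below or near the lowest quartile of about 3.7, as for Otulinl and uninduced Iftap, limit what can be read from a difference.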

Other observations

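The imprinted gene Mest separated clone 3 from the others in both states, with 9.91 induced and 9.71 uninduced in clone 3, against 4.77 and 4.67 in clone 1 and 4.48 and 4.21 in clone 2. Its change on induction was 0.10 to 0.27 in the 3 clones. Stra8, a gene that germ cells use to enter meiosis, was at 6.04 induced and 6.56 uninduced in clone 1 and at 8.97 to 9.23 in clones 2 and 3. Notch3 changed by -0.67 and -0.85 in clones 2 and 3 and by 0.22 in clone 1. All 3 genes were picked for their values, and no test was made.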
